A study of Homo sapiens with 12 samples.

Results

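PANC1 cells treated with ICG-001 were compared with PANC1 cells treated with C646, each at 10 uM and each collected after 12 h. PANC1 is an established human pancreatic ductal carcinoma line. The members were rows of an expression array table, mostly 1 gene each, whose signal was above background in at least 1 of the 2 columns, and 17429 of 34687 rows met this rule. The log2 ratio of ICG-001 over C646 was taken for each of them, with no vehicle column in the ratio. In the same study, PANC1 and a colon carcinoma line, HCT116, received DMSO at 0.05%, ICG-001 or C646 and were collected after 12 or 96 h. The ICG-001 column was the authors' mean of 3 arrays and the C646 column their mean of 2 arrays. With 1 column for each drug there was no replicate check, so the values below are sizes, with no test and no p-value.

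CBP (CREBBP) and p300 (EP300) are closely related co-activators that acetylate histones and other proteins and are recruited by many transcription factors. β-catenin, the effector of WNT signaling, binds both of them at genes occupied by TCF factors. ICG-001 binds CBP and blocks its contact with β-catenin, while C646 competes with acetyl-coA and inhibits the acetyltransferase activity of both CBP and p300. The direct comparison asks in which genes an inhibitor of 1 interaction and an inhibitor of the enzymatic activity leave different RNA levels. Carcinoma cells answer a short supply of amino acids through ATF4, a transcription factor whose translation increases when amino acids are short or the endoplasmic reticulum is overloaded. ATF4 and its partners of the CEBP family activate genes for amino acid synthesis and import, tRNA charging and, when stress persists, cell death.

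Before the ratios, the columns themselves were examined. Signals above 135.5 with ICG-001 and above 136.5 with C646 were taken as detected, where signal is brightness on a linear scale in arbitrary units. Of the 17429 rows, 15019 were above the limit in both columns, 1317 only with ICG-001 and 1093 only with C646. The row nearest to the rule on the inside had signals of 134.9 with ICG-001 and 136.5 with C646, and the row HHATL, with 135.5 and 131.4, lay just outside. Among the 17258 rows under the limit in both columns the log2 ratio had an SD of 0.062, and 0 of them differed 1.5-fold. Of 12 genes listed for ductal and epithelial cells 11 were compared, and KRT19, a keratin of duct cells, had signals of 7857 with ICG-001 and 11062 with C646. Among markers of acinar and endocrine cells, 1 of 15 was compared, and this was PDX1, a transcription factor of the pancreas. Among markers of immune cells, endothelium and fibroblasts, 4 of 16 were compared and 0 of them differed 1.5-fold.

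The DMSO 12 h column of PANC1 stood farther from both 12 h drug columns than the DMSO 96 h column did. The row of RNA18SN5, an 18S ribosomal RNA gene, had a signal of 141.3 in DMSO 12 h, 1340 with ICG-001, 1108.5 with C646 and 732.4 in DMSO 96 h. Between the 2 DMSO columns 217 rows differed at least 1.5-fold, beside 702 between the ICG-001 columns and 84 between the C646 columns. The ICG-001 12 h column differed from DMSO 12 h at 434 rows and from DMSO 96 h at 228. For the C646 12 h column these counts were 1171 and 552. The ratio of the drugs does not use either DMSO column, and vehicle signals are given below only beside those of the drugs. Why the DMSO 12 h column stood farther from the drug columns was not tested.

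At least 1.5-fold higher signals with ICG-001 than with C646 were found for 278 rows, which was 1.6% of the rows compared, and at least 1.5-fold lower signals for 164 rows, or 0.941%. The higher side held the larger ratios. At a threshold of 2-fold, 32 rows were higher and 8 lower, and at 3-fold 6 were higher and 0 lower. The log2 ratio ranged from -1.28 to 2.40 with a median of 0.0008, and 81.5% of rows lay within 1.2-fold. Rows sat closely on both sides of the threshold. APLP2, at 1.502-fold, was just inside it on the higher side and RAB32, at 1.498-fold, just outside. Of the 278 higher rows, 5 had a C646 signal under the detection limit. For these rows the difference was also taken against the detection limit of C646 as a lower bound. It was at least 1.55-fold for CHAC1, at least 1.54-fold for CTH and at least 1.94-fold for S100P. For HKDC1 and FLJ35024, named after their values were seen, it was at least 1.44-fold and at least 1.43-fold, so these 2 of the 278 rows are not shown to differ 1.5-fold.

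**Figure D1:**
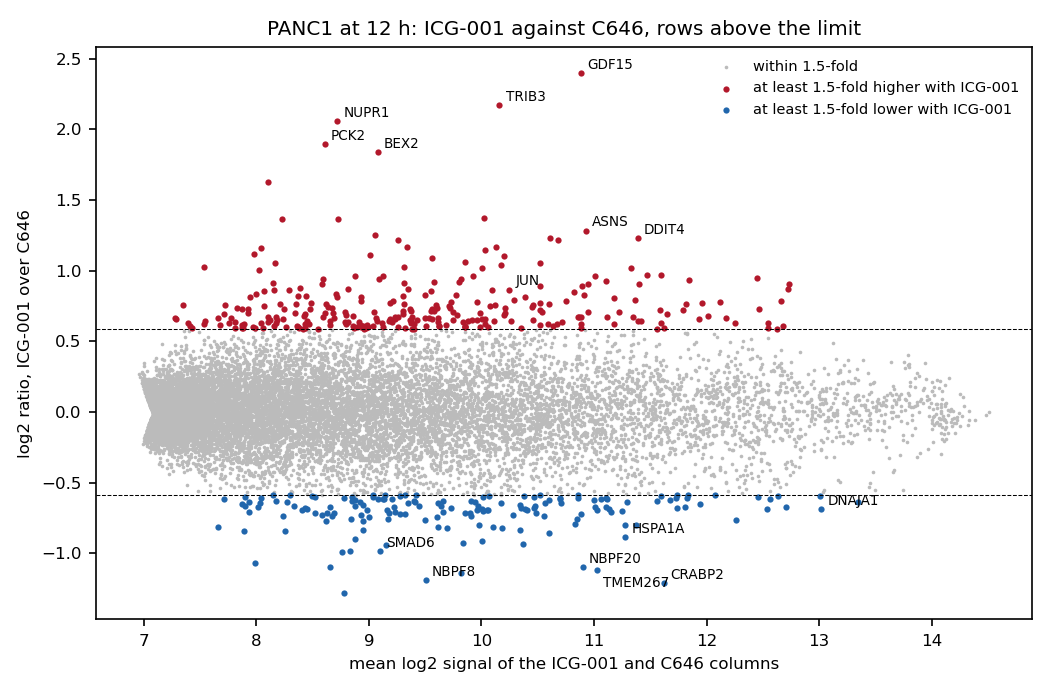
Log2 ratio of ICG-001 over C646 in PANC1 at 12 h against the mean log2 signal of the 2 columns, with 1 point per row for the 17429 rows above the detection limit and dashed lines at 1.5-fold. The 278 higher rows reach a log2 ratio of 2.40 (GDF15), while the 164 lower rows reach -1.28.

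The dimmest rows differed least often, and rows of middle brightness most often. Of the 7570 rows with a mean signal under 200, 0.12% were higher and 0 were lower. From 400 to 3200 the share of higher rows lay between 3.48% and 3.6%, and that of lower rows between 1.97% and 2.78%. Of the 1036 rows above 3200, 1.83% were higher and 1.74% lower, close to the 1.88% higher of the rows from 200 to 400. Background was left in the signal by the authors, so the ratios of dim rows understate the difference. A measure of how far a single row can be trusted came from genes with more than 1 row. For 275 genes with at least 2 rows compared, the ratios of the 2 brightest rows differed by 0.12 at the median and by 0.36 at the 90th percentile on the log2 scale. Of 11 such genes with a row past 1.5-fold, 2 had both rows past it in the same direction, and 8 had ratios of the same sign. The genes with both rows past the threshold were NIBAN1, with log2 ratios of 1.06 and 1.00, and EIF6, with 0.73 and 0.67. INF2 and RBM14 had rows that pointed opposite ways, at -0.66 and 0.50 for INF2 and at 0.39 and -0.74 for RBM14. These 4 genes were picked after their values were seen.

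Genes that encode proteins made up 68.4% of all rows compared, 84.2% of the higher rows and 68.3% of the lower rows. Rows that matched no single RefSeq gene made up 21.4% of all rows, 7.9% of the higher rows and 19.5% of the lower rows. The higher genes were also shorter. The median length in the genome was 17.9 kb for 231 higher protein-coding genes, 27.9 kb for 111 lower ones and 28.6 kb for the 11676 compared. Promoters of higher and lower genes had a median GC content of 67.3% and 68.2%, against 65.3% over all compared genes with a promoter sequence.

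The genes of the ATF4 response stood on the ICG-001 side. Of 22 compared regulators and early effectors of this response, 15 (68.2%) were at least 1.5-fold higher with ICG-001 and 0 lower. Over all rows 1.6% were higher and 0.941% lower. The median log2 ratio of the list was 0.83, against 0.0008 over all rows. This list and those below were chosen with earlier results of these data known. Their counts are therefore not independent evidence of a direction. Signals of GDF15, a secreted stress cytokine, were 4346 with ICG-001 and 823.7 with C646, a 5.28-fold difference and the largest of all rows. DMSO signals of GDF15 were 1426.5 at 12 h and 3779.5 at 96 h, so the C646 column was the lowest of these 4 and the ICG-001 column the highest. TRIB3, a pseudokinase that restrains ATF4, had signals of 2427 with ICG-001 and 539.2 with C646, a 4.50-fold difference, beside 365.8 in DMSO 12 h and 895.2 in DMSO 96 h. For TRIB3 the ICG-001 column stood above both DMSO columns while the C646 column lay between them.

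NUPR1, a small chromatin-associated stress protein first found in inflamed pancreas, had signals of 859.6 with ICG-001 and 205.9 with C646, a 4.17-fold difference. In DMSO its signals were 216.9 at 12 h and 496.5 at 96 h. A second row, labelled P8, had 484.5 with ICG-001 and 156.9 with C646. RefSeq lists P8 as an older name of NUPR1 and of 4 further genes, so this row was counted under its own label. BEX2, an adaptor protein, had 1021.8 with ICG-001 and 285.9 with C646. PCK2, the mitochondrial phosphoenolpyruvate carboxykinase, had 753.7 with ICG-001 and 202.0 with C646, and its DMSO signals were 195.7 and 331.7. In BEX2 and PCK2 the C646 column was close to DMSO 12 h and the ICG-001 column above both DMSO columns.

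The transcription factors of the response were higher with ICG-001 by smaller factors. ATF4 itself had signals of 3070 with ICG-001 and 1752 with C646, a log2 ratio of 0.81. CEBPG, a partner of ATF4 in DNA binding, had 2393 and 1019, and CEBPB, another partner, had 2877 and 1476. DDIT3, also known as CHOP, which promotes cell death under lasting stress, had 1010.5 and 558.9. ATF3 was dim, at 234.1 and 149.6, and ATF5 lay on the other side of 0 with 2014 and 2243.5. Among effectors, DDIT4, an inhibitor of the growth kinase complex mTORC1, had 4112 with ICG-001 and 1749 with C646. PPP1R15A, which restores translation, had 1230 and 650.2. The 7 compared members within 1.5-fold were SESN2, INHBE, CHMP4C, VEGFA, JDP2, VLDLR and ATF5, with log2 ratios from -0.16 to 0.57.

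**Figure D2:**
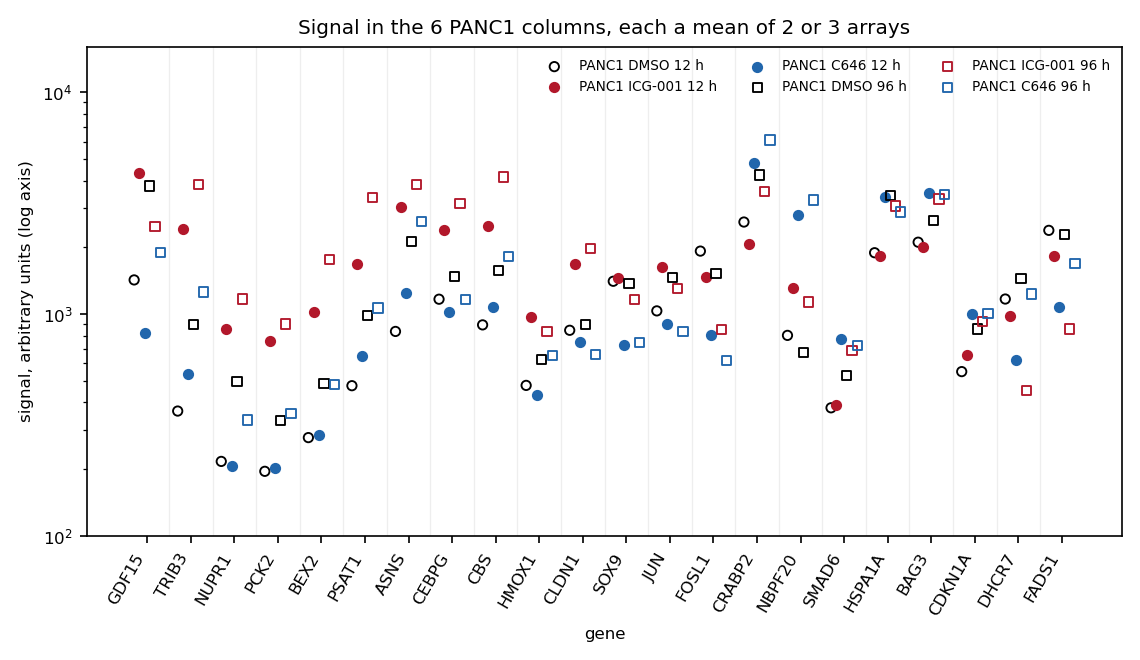
Signal (log axis, arbitrary units) of 22 genes in the 6 PANC1 columns, where circles are 12 h (filled for the drugs), squares 96 h, black DMSO, red ICG-001 and blue C646, and each point is the authors' mean of 2 arrays, or 3 for ICG-001 12 h. For TRIB3 and BEX2 both ICG-001 points stand above all 4 others, while for GDF15 the DMSO 96 h point, at 3779.5, lies close to ICG-001 12 h, at 4346.

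Enzymes of amino acid synthesis followed the same order. Of 20 compared, 10 were at least 1.5-fold higher with ICG-001 and 0 lower, with a median log2 ratio of 0.60. In the serine pathway, PHGDH, the first enzyme, had signals of 4331.5 with ICG-001 and 2209 with C646, and PSAT1, the second, had 1676 and 646.7. PSPH, which completes serine synthesis, differed less, with 582.6 and 500.6. ASNS, asparagine synthetase, had 3035 with ICG-001 and 1246 with C646, a 2.44-fold difference, beside 835.8 and 2119 in DMSO at 12 and 96 h. CBS, which joins serine and homocysteine, had 2503 with ICG-001 and 1075 with C646. The aminotransferases GOT1, GPT2 and BCAT1 and the mitochondrial folate enzyme MTHFD2 had log2 ratios of 0.94, 0.87, 0.86 and 0.85. PYCR1, of proline synthesis, was at 0.79. The cytosolic folate enzymes SHMT1 and MTHFD1 lay below 0, with log2 ratios of -0.28 and -0.10. A row of PSAT1P3, a pseudogene of PSAT1, had a log2 ratio of 1.22, beside 1.37 for PSAT1, and a probe for such a near copy may read both.

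Amino acid transporters and tRNA synthetases differed by less. Of 14 transporters, 5 (35.7%) were at least 1.5-fold higher with ICG-001, against 1.6% of all rows, and 0 lower. The median log2 ratio was 0.36. SLC3A2, the shared heavy chain of several exchangers, had signals of 1249 with ICG-001 and 650.2 with C646. SLC1A5, which imports glutamine, had 1006 and 603.6, and SLC7A1, which imports arginine and lysine, had 1883 and 1143. SLC7A5, the leucine exchanger that pairs with SLC3A2, was bright in both, at 5225 and 4118, beside 1702 and 3454 in DMSO. Of 16 cytosolic aminoacyl-tRNA synthetases, 3 were higher by 1.5-fold, namely WARS1, TARS1 and IARS1, and 0 were lower. The median was 0.33. The row labelled GARS had 9286 with ICG-001 and 4961 with C646, but RefSeq gives this older name to 2 genes, GARS1 and GART, and it was left out of the list. HARS1, for histidine, had the smallest log2 ratio, -0.30.

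Promoters of these genes were examined for the composite element that ATF4 and CEBP proteins bind as a pair, because many genes of these lists stood on the same side. The letters TGATGNAA were searched on both strands of the RefSeq promoter window of each protein-coding gene, which runs from 250 bases before to 50 bases after the annotated start in GRCh38.p14. The element was found in 14 of 185 higher genes with a promoter sequence (7.6%), in 1 of 98 lower genes (1.0%) and in 167 of 9609 compared genes (1.7%). Most genes of every set lacked it. Among the 30 higher genes with the largest ratios it was found in 2 of 26 with a promoter sequence (7.7%), near the share of all higher genes. Of the 15 largest ratios, 12 genes had a promoter sequence, and ASNS was the 1 of them that held the element, while GDF15, TRIB3, PCK2, BEX2, PSAT1, DDIT4, CEBPG and CBS had 0 matches in this window. The AP-1 element TGANTCA was found in 5.9%, 6.1% and 4.5% of the same sets, and the TCF/LEF element CTTTGA in 3.2%, 7.1% and 8.4%. The letters of CTTTGA can overlap those of the other elements at TGA, and a match is only a description of the window. The windows of the 4 genes of amino acid synthesis and transport with the largest ratios among those that held the element are shown, each read 5′ to 3′ along its gene, with the element in capitals. They lie at chr7:97872359-97872658 on the minus strand for ASNS, chr11:62881449-62881748 on the plus strand for SLC3A2, chr10:99430575-99430874 on the minus strand for GOT1 and chr12:24949052-24949351 on the minus strand for BCAT1.
ASNS: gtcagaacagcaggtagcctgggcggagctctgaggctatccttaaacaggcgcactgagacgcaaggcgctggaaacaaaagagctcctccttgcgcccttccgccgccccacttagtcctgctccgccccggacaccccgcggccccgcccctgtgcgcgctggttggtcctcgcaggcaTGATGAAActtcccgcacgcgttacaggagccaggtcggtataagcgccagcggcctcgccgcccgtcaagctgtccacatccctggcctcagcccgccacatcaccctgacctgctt
SLC3A2: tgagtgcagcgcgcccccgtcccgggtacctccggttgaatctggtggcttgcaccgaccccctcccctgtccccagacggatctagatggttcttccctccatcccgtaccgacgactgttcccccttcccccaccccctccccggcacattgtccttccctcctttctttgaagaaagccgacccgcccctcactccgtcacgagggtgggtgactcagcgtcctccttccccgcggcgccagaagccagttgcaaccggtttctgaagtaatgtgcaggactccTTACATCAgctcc
GOT1: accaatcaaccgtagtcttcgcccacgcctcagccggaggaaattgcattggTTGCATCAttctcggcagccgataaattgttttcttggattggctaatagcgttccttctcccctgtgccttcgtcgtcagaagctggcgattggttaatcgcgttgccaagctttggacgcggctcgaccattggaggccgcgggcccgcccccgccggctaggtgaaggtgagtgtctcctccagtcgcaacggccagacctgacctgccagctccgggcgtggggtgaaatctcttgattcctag
BCAT1: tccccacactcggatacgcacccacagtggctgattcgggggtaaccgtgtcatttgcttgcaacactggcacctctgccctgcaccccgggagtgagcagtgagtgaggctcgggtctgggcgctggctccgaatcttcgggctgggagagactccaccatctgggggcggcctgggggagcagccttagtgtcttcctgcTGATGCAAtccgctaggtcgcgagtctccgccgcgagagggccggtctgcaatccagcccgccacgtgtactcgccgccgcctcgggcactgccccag
In ASNS the element begins 68 bases before the annotated start, in GOT1 198 before and in BCAT1 48 before, while in SLC3A2 it begins 37 bases after the start. In ASNS and BCAT1 the element reads along the gene, and in GOT1 and SLC3A2 on the opposite strand. Other higher genes with the element were CHAC1, SLC7A1, SLC38A1, TARS1, IARS1, HERPUD1, ATF3 and S100P, a calcium-binding protein with a signal of 265.5 with ICG-001 and 130.2, under the limit, with C646. FAM24B and RNF182 completed the 14. ZNF486 was the lower gene with it.

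Several growth factor and AP-1 genes were also on the ICG-001 side. Of 18 compared genes of ERK output and feedback, 5 (27.8%) were at least 1.5-fold higher with ICG-001, against 1.6% of all rows, and 0 lower. The median log2 ratio was 0.30. DUSP5, a phosphatase that acts on ERK, had signals of 1355.5 with ICG-001 and 693.9 with C646. FOSL1, an AP-1 subunit, had 1470 with ICG-001 and 807.9 with C646, below its 1924 and 1527.5 in DMSO, so the C646 column was the lowest of the 4. JUN, another AP-1 subunit, had 1638 and 898.5, beside 1034.5 and 1460 in DMSO. JUND, the third AP-1 gene past 1.5-fold, had 4700 and 2770. Among EGF receptors and ligands 2 of 8 were higher, namely HBEGF, at 654.6 and 335.8, and NRG1, at a log2 ratio of 0.62. EGFR itself was within 1.5-fold, at 472.0 and 332.7. The PI3K-AKT list had 0 of 29 past 1.5-fold and a median of 0.03.

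**Figure D3:**
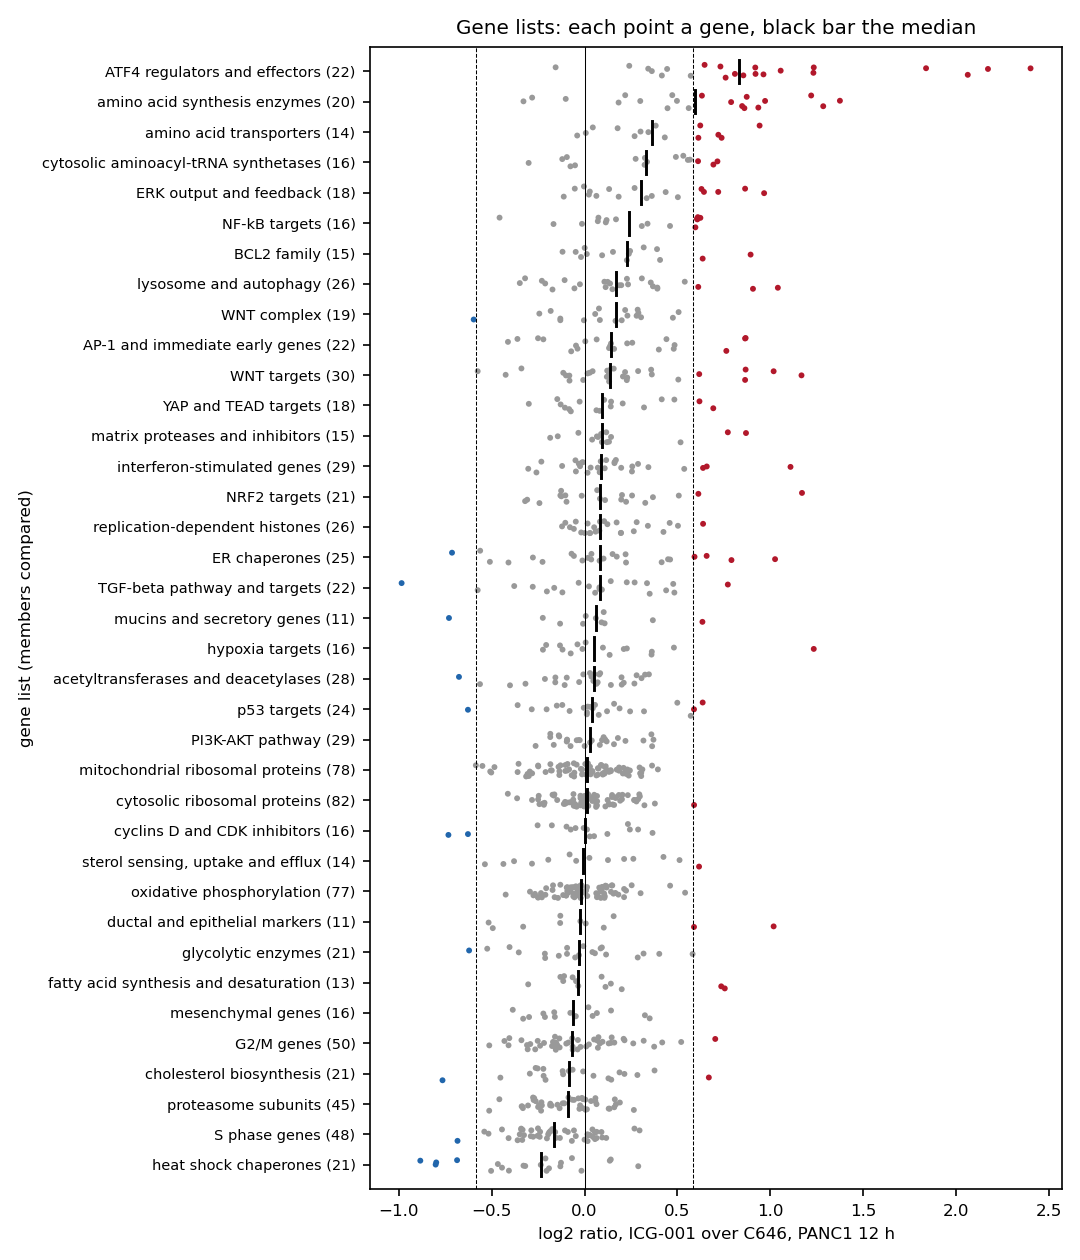
Log2 ratio of ICG-001 over C646 in PANC1 at 12 h for the members of the gene lists with at least 10 members compared, small structural RNAs left out, sorted by median (black bar), with dashed lines at 1.5-fold. The ATF4 list has the highest median, 0.83, and the heat shock list the lowest, -0.24. Genes may belong to more than 1 list.

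WNT target genes differed in 5 of 30 compared, all higher with ICG-001 (16.7%, against 1.6% of all rows), and the median log2 ratio was 0.14. The study picked some of these genes from the same samples, so the count is not independent evidence of a direction. The 5 genes were CLDN1, a tight junction protein, SOX9, a transcription factor of duct cells, JUN, FOSL1 and L1CAM, an adhesion molecule. CLDN1 had signals of 1678 with ICG-001 and 747.1 with C646, and DMSO signals of 845.8 and 898.7 lay near the C646 column. SOX9 had 1462.5 with ICG-001 and 722.5 with C646, and here DMSO signals of 1407 and 1376 lay near the ICG-001 column. Among the genes of the WNT model, NUPR1, JUN and FOSL1 were past 1.5-fold on the higher side, with log2 ratios of 2.06, 0.87 and 0.86. CDKN1A was past it on the lower side, at -0.63, while the other members were within it. MYC, with 1507 and 1375, had a log2 ratio of 0.13, and CCND1, the gene of cyclin D1, had 0.03. S100A4 was at 0.04, BIRC5, the gene of survivin, at -0.34 and DKK1, a secreted WNT antagonist, at 0.22. AXIN2, the feedback inhibitor, was close to the detection limit in both columns, with signals of 135.6 and 146.8 and a log2 ratio of -0.11.

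CBP, p300 and their partners at WNT targets had similar signals in both columns. CREBBP had 726.6 with ICG-001 and 632.5 with C646, EP300 had 326.0 and 268.5, CTNNB1 had 242.1 and 228.7, and TCF7L2 had 209.8 and 171.6. Their log2 ratios ran from 0.08 to 0.29. Among 19 compared components of the WNT complex, LRP5, a WNT co-receptor, was 1.5-fold lower, with 503.4 and 761.0, and 0 were higher. Of 28 acetyltransferases and deacetylases, 1 was past the threshold, KAT2A, with 1117 with ICG-001 and 1784 with C646.

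Genes of inflammation and cell survival were higher with ICG-001 in part. Of 16 NF-kB targets 5 (31.2%) were at least 1.5-fold higher, against 1.6% of all rows, and 0 lower. The median was 0.24. They were RELB, ICAM1, BIRC3, TNFAIP2 and NFKB2, whose log2 ratios lay between 0.60 and 0.62, just inside the threshold. BIRC3, an inhibitor of cell death, was the brightest, at 1965 with ICG-001 and 1290 with C646. LTB, a membrane-bound cytokine of the TNF family, had 393.4 and 175.8, a 2.24-fold difference. Among interferon-stimulated genes 3 of 29 were higher, ISG20 by the most, at 758.9 and 352.0. In the BCL2 family 2 of 15 were higher, so this list and the interferon list rest on few genes. BCL2L1, the gene of the survival protein BCL-XL, had 2585 with ICG-001 and 1392 with C646, while PMAIP1, the gene of the death-promoting NOXA, had 280.0 and 180.2. DMSO signals of BCL2L1 were 2800 and 2258, so the C646 column stood below the 3 others.

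Genes of degradation and oxidative stress gave single large differences. HMOX1, heme oxygenase, had signals of 969.9 with ICG-001 and 431.1 with C646, a 2.25-fold difference, but 2 of 21 NRF2 targets passed 1.5-fold and the median was 0.08. MAP1LC3B, the autophagosome protein, had 1657 and 806.0. CTSD, a lysosomal protease, had 2709 and 1446, and with DMSO at 3395 and 2961 it was lowest in the C646 column. Among 25 chaperones and effectors of the endoplasmic reticulum, 4 were higher and 1 lower. HYOU1 had 905.1 with ICG-001 and 444.7 with C646, whereas CRELD2 had 1117 and 1830, so this list was split. In the TGF-β list, SMAD6, an inhibitory SMAD, was lower, with 390.6 and 772.6. PLAU, a protease that activates plasminogen, had 9111 and 4990.

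RGS2, which limits signaling by G proteins, and MYEOV, a gene first found in myeloma, completed the 15 largest ratios among rows with the name of 1 gene, rows of uncharacterized loci left aside. RGS2 had signals of 680.8 with ICG-001 and 263.6 with C646, with DMSO at 367.1 and 411.2 between them. MYEOV had 820.4 and 343.5, with DMSO at 664.0 and 585.6.

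On the other side, CRABP2, a carrier of retinoic acid, had the smallest ratio among rows with the name of 1 gene, rows of uncharacterized loci left aside. Its signals were 2065 with ICG-001 and 4783.5 with C646, a 2.32-fold difference, beside 2601 and 4233 in DMSO at 12 and 96 h. NBPF8 and NBPF20, members of a gene family of nearly identical copies, had 481.5 and 1098 and 1307 and 2795. TMEM267, a membrane protein, had 1416 and 3077. For NBPF8, NBPF20 and TMEM267 both drug columns stood above both DMSO columns, whose highest signals were 327.0, 802.3 and 1150.5, with C646 the farther from them. As members of the NBPF family share sequence, the rows are uncertain as readings of single genes.

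The other smallest ratios covered unrelated functions. SMAD6 and MXD4, a repressor that competes with MYC for MAX, had log2 ratios of -0.98 each, and MXD4 was the only one of 9 compared genes of the MYC network past 1.5-fold. SLC44A2, a choline transporter, was at -0.94, VASN, a membrane protein that binds TGF-β, at -0.91 and TCEA3, an elongation factor, at -0.90. EFHD1 and CAPN5, a calcium-binding protein and a calpain, were at -0.86 and -0.84. NAT10, an RNA acetyltransferase, had signals of 621.6 with ICG-001 and 1097 with C646 and a ratio of -0.82. RAB17, a small GTPase of epithelial cells, was dim, at 152.6 and 268.7. CACYBP, which binds the calcium-dependent protein S100A6 and ubiquitin ligases, had 591.7 and 1040. A row of its pseudogene CACYBPP2 had a ratio of -0.84, near the -0.81 of CACYBP.

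Cytosolic heat shock chaperones were lower with ICG-001 than with C646 in 4 of 21 compared genes (19.0%, against 0.941% of all rows), and 0 were higher. The median was -0.24, the lowest of the lists with at least 10 genes compared. HSPA1A, an inducible HSP70, had signals of 1829 with ICG-001 and 3374 with C646, and HSPA1B, its nearly identical neighbour, had 1881 and 3278. Rows of such copies may read both genes, and in HCT116 at 12 h their log2 ratios were far apart, at 0.12 and -2.06. BAG3, a cochaperone of HSP70, had 2012 and 3498, and DNAJA1, another, had 6546 and 10529. In DMSO, HSPA1A had 1892 at 12 h and 3433 at 96 h, so that ICG-001 lay near the first and C646 near the second. DNAJB1, a cochaperone of the same system, had a log2 ratio of 0.29. Constitutive members differed less, with -0.13 for HSPA8 and 0.14 for HSP90AB1.

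Among cell cycle genes, the S phase list leaned to lower levels with ICG-001 by small amounts, and the others less or not at all. S phase genes had a median log2 ratio of -0.17 over 48 genes, of which 32 were below 0 and 1 was past 1.5-fold. This was CDT1, a loader of the replicative helicase, with 276.5 with ICG-001 and 444.1 with C646. For G2/M genes the median was -0.07 over 50 genes, of which 30 were below 0. CDC25B, a phosphatase that activates cyclin-dependent kinases, was the 1 past the threshold, higher at 1298 and 797.4. Among cyclins D and inhibitors of cyclin-dependent kinases, 2 of 16 were lower. The median of this list was 0.0042, with 8 genes above 0 and 8 below. Over all rows 1.6% were higher and 0.941% lower, and the counts of these lists are small. CDKN1A, the gene of p21, had 651.4 with ICG-001 and 1006 with C646, beside 550.8 and 856.7 in DMSO. CCND3, the gene of cyclin D3, had 1167.5 and 1940.

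Few lipid genes were past 1.5-fold at 12 h. Of 21 cholesterol synthesis genes 1 was higher and 1 lower, too few to set apart from the 1.6% and 0.941% of all rows, and the median was -0.08. DHCR7, which makes cholesterol in the last step of 1 branch of the pathway, had signals of 985.8 with ICG-001 and 620.1 with C646, below the 1170 and 1448 of DMSO. HSD17B7, another enzyme of the pathway, had 3771 and 6404, and RefSeq also lists this name for a pseudogene, so which of them the row reads is uncertain. FADS1 and FADS2, the desaturases of polyunsaturated fatty acids, had 1823 and 1081 and 294.3 and 176.8, and they were the 2 of 13 genes of fatty acid synthesis past 1.5-fold. NPC1, which exports cholesterol from lysosomes, was the 1 of 14 genes of sterol sensing and transport past it, with 1819 and 1187.

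Large structural complexes had medians near 0. Of 77 oxidative phosphorylation genes, 78 mitochondrial ribosomal proteins and 45 proteasome subunits, 0 were past 1.5-fold, and their medians were -0.02, 0.01 and -0.09. As 1.6% of all rows were higher and 0.941% lower, counts of 0 in lists of this size say little. Single members came close to the threshold, such as MRPL52 at a log2 ratio of -0.58 and ATP5MK at 0.54. Of the 45 proteasome subunits, 31 were below 0. Of 82 cytosolic ribosomal proteins 1 was past 1.5-fold, RPS26, with a log2 ratio of 0.59. Metallothioneins, which bind zinc and copper, had 0 of 9 past the threshold, but all 9 had log2 ratios above 0, with a median of 0.32. Hypoxia targets had 1 of 16, which was DDIT4 of the ATF4 list, and a median of 0.05. Of 24 p53 targets 2 were higher and 1 lower, and that 1 was CDKN1A.

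Of 181 small structural RNAs compared, 2 were at least 1.5-fold higher (1.1%, against 1.6% of all rows) and 4 lower (2.2%, against 0.941%). The counts are small and the members are given as values only. SNORD3D had signals of 275.7 with ICG-001 and 589.7 with C646, and SNORD3A, a copy of the same small nucleolar RNA, had 228.7 and 409.5. SNORA12 had 308.5 and 613.0, and RNU4ATAC, of the minor spliceosome, had 341.9 and 191.5. DMSO signals of SNORA12 were 289.0 at 12 h and 593.7 at 96 h, so the difference between the drugs was no wider than that between the vehicle columns. Of the rows that matched no gene, LOC727908 had the smallest ratio of the whole comparison, -1.28, with 281.1 with ICG-001 and 683.0 with C646.

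The vehicle columns were set beside all rows past 1.5-fold to see which drug column lay outside them. The rows were chosen for the distance between the drugs, which favours a drug column outside the vehicle columns, and the counts are a description only. Of the 278 higher rows, 48 had ICG-001 above both DMSO columns while C646 was not below both, 123 had C646 below both while ICG-001 was not above both, and 107 had both. Of the 164 lower rows, 118 had C646 above both DMSO columns while ICG-001 was not below both, 9 had ICG-001 below both while C646 was not above both, and 36 had both. The remaining lower row had neither. The DMSO columns themselves were at least 1.5-fold apart at 36 of the higher and 29 of the lower rows.

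The differences were then followed in columns not used to choose the rows. At 96 h in PANC1, ICG-001 was at least 1.5-fold higher than C646 at 587 rows (3.3% of those compared) and lower at 614 rows (3.45%). All 442 rows of the 12 h comparison were compared at 96 h, and 399 (90.3%) had the same sign there, against 64.9% of all 16397 rows compared at both times. Past 1.5-fold in the same direction were 208 rows, which was 47.1% of the 12 h list and 17.3% of the 96 h list, and 7 were past it the opposite way. Across all rows compared at both times, Pearson's r of the log2 ratios was 0.54 and Spearman's rho 0.47, as a description, since genes are not independent replicates and columns of a line share their normalization.

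Persistence varied within the ATF4 list. TRIB3 had log2 ratios of 2.17 at 12 h and 1.61 at 96 h, NUPR1 2.06 and 1.81, and BEX2 1.84 and 1.87. NIBAN1, in its brighter row, went from 1.06 to 2.09. GDF15, by contrast, went from 2.40 to 0.39, with signals at 96 h of 2485 with ICG-001 and 1893 with C646. Across the list 16 genes were past 1.5-fold at 96 h, all higher, and the median was 0.73. Other large 12 h ratios were near 0 at 96 h, such as RGS2 at -0.15 and MYEOV at 0.14. The heat shock list had 0 genes past 1.5-fold at 96 h and a median of 0.14.

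**Figure D4:**
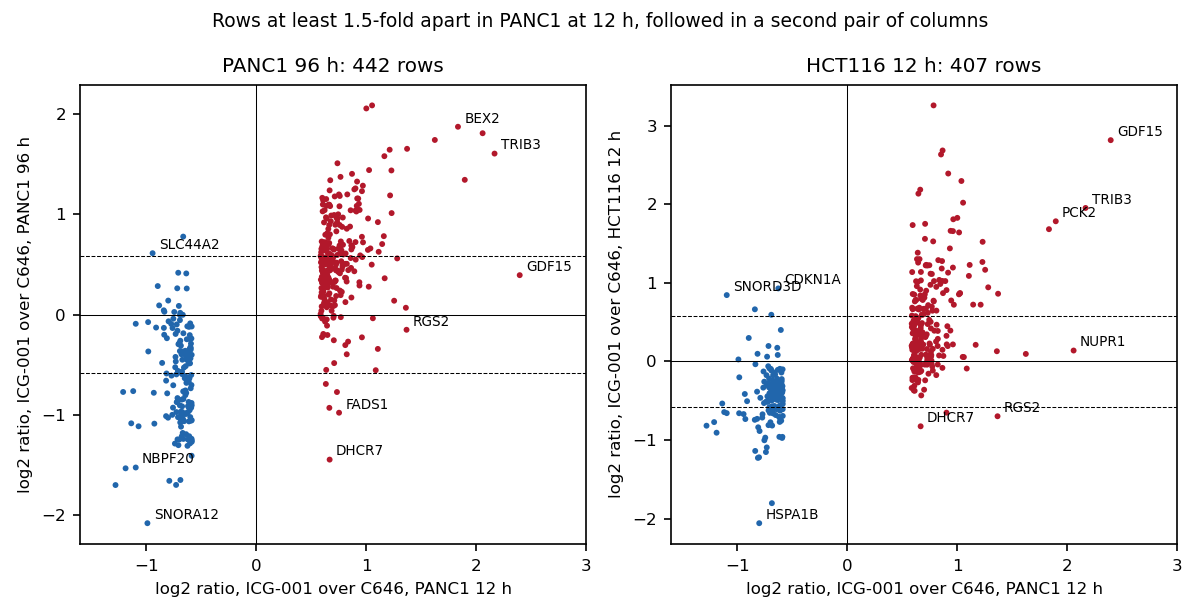
Log2 ratios of ICG-001 over C646 for the rows at least 1.5-fold apart in PANC1 at 12 h (horizontal axis) against the same ratio in PANC1 at 96 h (left, 442 rows) and in HCT116 at 12 h (right, 407 rows), with red for rows higher and blue for rows lower with ICG-001 and dashed lines at 1.5-fold. Most points keep their sign, 399 of 442 on the left and 349 of 407 on the right, while DHCR7 lies below 0 in both panels.

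Cholesterol and fatty acid genes stood in a different order at the later time, and the difference between the times was not tested. At 96 h, 15 of 21 cholesterol synthesis genes were at least 1.5-fold lower with ICG-001 than with C646, against 3.45% of all rows. Their median was -0.83, and at 12 h 1 of 21 was lower. In HCT116 the order was already present at 12 h, where 13 of 21 were lower, against 2.88% of all rows, with a median of -0.67. DHCR7 went from a log2 ratio of 0.67 at 12 h to -1.45 at 96 h, FADS1 from 0.75 to -0.98 and FADS2 from 0.74 to -0.77. SLC44A2 went the opposite way, from -0.94 to 0.61. CLDN7, another tight junction protein, had 0.63 at 12 h and -0.69 at 96 h.

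In HCT116 cells at 12 h, ICG-001 was at least 1.5-fold higher than C646 at 589 rows (3.52%) and lower at 482 (2.88%). Of the 442 rows, 407 were compared in HCT116, and 349 of these (85.7%) had the same sign, against 64.1% of the 14982 rows compared in both lines. Past 1.5-fold in the same direction were 140 rows, or 31.7% of the PANC1 list and 13.1% of the HCT116 list, and 7 were past it the opposite way. Pearson's r across rows was 0.48 and Spearman's rho 0.44, again as a description. GDF15, TRIB3, PCK2 and BEX2 had log2 ratios of 2.82, 1.95, 1.78 and 1.68 in HCT116, the same order of size as in PANC1. NUPR1, at 0.14, and CLDN1, CBS and HMOX1, at -0.0035, 0.02 and 0.21, were past 1.5-fold in PANC1 and within it in HCT116, and the difference between the lines was not tested. The heat shock list had 11 of 20 genes lower with ICG-001 in HCT116 and a median of -0.65, and S phase genes had 27 of 48 lower and a median of -0.69. CDKN1A was at -0.63 in PANC1 and 0.93 in HCT116, and RGS2 was at 1.37 and -0.70.

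At least 1.5-fold differences in the same direction in both lines and at both times were found for 57 of the 442 rows. The 442 were themselves chosen, by their 12 h ratio, from the 17429 rows compared in PANC1. Of the 57 rows, 49 were higher and 8 lower with ICG-001. In PANC1 at 12 h alone, 1.6% of all rows were higher and 0.941% lower. The number to be shared by 4 unrelated comparisons was not worked out, so the count is a description. The 57 rows were not all separate genes, as both rows of NIBAN1 and the pseudogene PSAT1P3 beside PSAT1 were counted. The higher rows included TRIB3, PCK2, BEX2, PSAT1, CEBPG, PHGDH, SLC3A2, GOT1, CEBPB, PPP1R15A and DDIT3, and, outside the ATF4 and amino acid lists, HBEGF, PLAU, JUN and ATF6. The 8 lower rows, named after their values were seen where the rule did not name them, were RPL36AL, PFKM, CCDC34, TPI1P2, NBPF20, NBPF8, CRABP2 and LOC727908.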

How the data were processed

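RNA of PANC1 and HCT116 cells was measured on Illumina bead arrays. The deposited values are array intensity on a linear scale. Per the study's methods and the submitters' processing notes, the authors read the arrays in GenomeStudio, normalized them by quantiles without subtracting background, and averaged arrays of a group, 2 arrays or 3 for PANC1 ICG-001 12 h. The deposited table has 1 column per group. Neither single arrays nor detection p-values entered the calculations, which leaves no test, SD or interval, and the number of arrays limits the precision. The study's methods describe the replicates of a treatment as independent biological ones, of which the table holds the mean.

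A background was fitted to the dim rows of each column, its 99th percentile served as the detection limit, and a row was compared when above it in at least 1 of the 2 columns. Log2 ratios were taken without an offset, and 1.5-fold was the threshold. A row under the limit in 1 column gives an "at least" fold against that limit. Row labels were matched to RefSeq genes: 17757 by current symbol, 3303 by an older one and 2669 by gene ID, while 150 matched several genes and 10808 none. By rule the text named the 15 largest and 15 smallest ratios among rows that match 1 gene (no LOC, rRNA or small RNA row). It also named 14 genes of the WNT model and the study's discussion. Up to 4 members of each list with the largest ratios of either sign were named too. Any other gene was named after its values were seen. The members and lists were chosen with earlier results of these data known. Alternatives were no filter, a stricter limit, both columns above the limit, other folds, normexp background correction (offset 16) with limma 3.58.1 in R 4.3.3, median centring, 1 row per gene, and the 96 h column of either drug. Ratios and counts came from pandas 2.3.3 and numpy 2.4.6 under Python 3.11.15, with scipy 1.17.1 for correlations and matplotlib 3.10.9 for plots, and the code was tested on simulated data. Results for some genes are not reported here.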

Additional observations from a re-analysis of the deposited data

Results flagged for a closer look

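Rows named above that were past 1.5-fold in PANC1 at 12 h and past it in the opposite direction elsewhere were picked out because the same drug comparison pointed opposite ways. With 1 column per group, none of these differences was tested. At 96 h in PANC1 the log2 ratio of ICG-001 over C646 was -1.45 for DHCR7, -0.98 for FADS1, -0.77 for FADS2 and -0.69 for CLDN7, all of them above 0 at 12 h, and 0.61 for SLC44A2, which was below 0 at 12 h. In HCT116 at 12 h it was -0.82 for DHCR7 and -0.70 for RGS2, both above 0 in PANC1, and 0.93 for CDKN1A, 0.66 for SNORD3A and 0.84 for SNORD3D, all of them below 0 in PANC1.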

How the results depend on the processing

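Array number and the lack of single arrays limit every value, so leaving out an array was not possible. No paired analysis was possible because each deposited column is a mean over the numbered replicates of its group. The counts of 278 higher, 164 lower and 442 differing rows depended on the fold, the background and the collection time. At 1.2-fold they were 1663, 1556 and 3219, and at 2-fold 32, 8 and 40. After normexp background correction they were 743, 640 and 1383. With the 96 h column in place of the 12 h column they were 337, 503 and 840 for C646, and 645, 480 and 1125 for ICG-001. The share of differing rows that were higher, 62.9%, was 51.7% at 1.2-fold, 80.0% at 2-fold, 53.7% after normexp, 40.1% with C646 96 h and 57.3% with ICG-001 96 h. The 208 rows past the fold the same way at PANC1 96 h were 1795 at 1.2-fold, 19 at 2-fold and 559 after normexp, and the 140 in HCT116 were 1499, 13 and 403. Of 93 named genes past 1.5-fold, all kept sign and fold with no filter, a stricter limit, both columns above the limit, normexp, centring or 1 row per gene. For most of these settings this was built in. A filter keeps or drops a row without changing its ratio, and centring moved ratios by 0.0008. Taking 1 row per gene leaves genes with a single row unchanged, and normexp raised the counts past 1.5-fold. With C646 96 h, 91 of the 93 kept the sign and 60 the fold, and with ICG-001 96 h, 81 and 46. Signs opposite to the 12 h comparison were found with ICG-001 96 h for SLC44A2 (0.68), TCEA3 (0.58), CAPN5 (0.13), DHCR7 (-0.46), FADS1 (-0.34), FADS2 (-0.25), EPHA2 (-0.064), NRG1 (-0.0085), CLDN7 (-0.095), SNORD3D (0.37), SNORD3A (0.18) and RNU4ATAC (-0.44), and with C646 96 h for DHCR7 (-0.32) and HIST2H2AA3 (-0.12). Of 44 list medians, 28 moved by more than 0.062, the SD of ratios under the limit, with C646 96 h, 31 with ICG-001 96 h, 17 after normexp, 10 with no filter, 6 with the stricter limit, 5 with both columns above it and 0 after centring. The cause of the shifts was not tested.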
